A study of Homo sapiens with 2 samples.

Results

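The 33 genes described here make cholesterol, bring it into the cell, move it between membranes and set how much of it is made. They were selected by gene symbol from 26506 genes measured in human corneal epithelial cells, an established cell line (ATCC CRL-11515), and all 33 were found in both deposited tables. The cells were grown for 72 hours in one of 2 media. The special medium was DMEM/F12 with 1 mM calcium chloride, 10% fetal bovine serum, EGF at 10 ng/mL and an antibiotic and antimycotic mix, and the other was keratinocyte serum-free medium (KSFM). Poly(A) RNA of 3 cultures per medium was pooled into 1 library, so there is no replicate spread, no test and no p-value. The labels do not give the calcium or EGF of KSFM. Serum and basal medium differed together, with any difference in the supplements, and their parts cannot be told apart.

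Cholesterol is built in the endoplasmic reticulum from acetyl-CoA, through mevalonate, farnesyl diphosphate, squalene and lanosterol. The membrane-bound transcription factor SREBP2 raises transcription of these enzymes when sterol is scarce. When sterol is plentiful, INSIG proteins hold SREBP2 and its escort SCAP in the endoplasmic reticulum, and its targets are transcribed less. Cells also take sterol from lipoproteins, and the lysosomal proteins NPC1 and NPC2 release it to other membranes. Corneal surface epithelium renews continually, so its cells need sterol for new membrane.

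In the special medium 5 of the 33 genes were lower by 2-fold or more and 0 were higher by that much. By the same rule, 6.77% of all 13632 genes tested were lower and 9.86% higher. The 5 were INSIG1, which holds SREBP2 back, STARD4, which carries sterol through the cytosol, and 3 enzymes of the last part of synthesis, DHCR7, TM7SF2 and HSD17B7. SREBF2, the gene of SREBP2 itself, was 1.52-fold lower (1.46 to 1.59). The surface receptor genes SCARB1 and LRP1 were 1.60-fold and 1.54-fold higher, while NPC1 and NPC2 were 1.64-fold and 1.58-fold lower. Fewer cells of a type and less RNA per cell cannot be told apart in these bulk libraries. The pathway was not lower throughout: the squalene synthase gene FDFT1 was 1.57-fold higher (1.48 to 1.66) and NSDHL, of a later step, 1.57-fold higher (1.41 to 1.75).

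Calls, higher or lower, required 1 CPM (the count scaled to library size) in either library, a difference of at least 2-fold, and an exact 95% interval that excluded equality. All 33 genes passed the CPM minimum. The interval given after a fold covers counting error only and not variation between cultures. Of all 13632 genes that passed the minimum, 6.77% were called lower and 9.86% higher, against 15.2% and 0% of the 33 genes. The shares describe this pair of libraries and carry no test, since members and lists were chosen with earlier results of these data known. On TPM as deposited, with 1 added to each value and by fold alone, 1266 genes were called higher and 349 lower, which puts 78.4% of called genes on the higher side, against 59.3% on scaled counts (1344 and 923). On that TPM scale 2 of the 33 genes, INSIG1 and STARD4, were still past 2-fold. The median of all genes lies 0.15 above equality on that log2 scale, and with this median set to 0 the same 5 genes were past 2-fold.

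The members had 148 counts or more in each library, so smaller differences were also larger than counting error. The interval lay wholly below equality in 19 of the 33 genes, wholly above in 10, and spanned equality in 4 (GGPS1, LSS, SC5D and SOAT1). Over all genes, 36.7% lay below and 37.2% above, against 57.6% and 30.3% of the 33. The median log2 ratio, special medium over KSFM, was −0.24 over the 33 genes and −0.00037 over all genes. The ratios reached from −1.36 in INSIG1 to 0.81 in MYLIP.

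**Figure D1:**
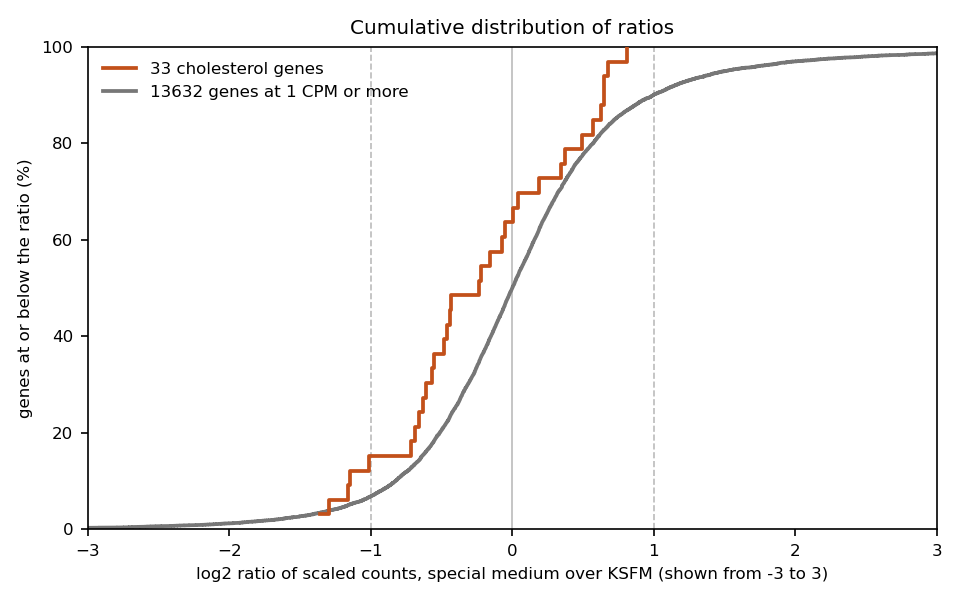
Cumulative share of genes (vertical axis, %) at or below each log2 ratio of special medium over KSFM (horizontal axis), for the 33 cholesterol genes and for the 13632 genes at 1 CPM or more; dashed lines mark 2-fold. The line of the cholesterol genes lies above that of all genes over most of the range, with medians of −0.24 and −0.00037, and ends at 0.81, short of 2-fold higher.

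The 5 genes called lower share a direction because the rule chose them by it. Their promoters are shown with that of SREBF2, the regulator of the pathway. They are the 250 bases before the first-listed start of each gene in RefSeq (GRCh38.p14), read 5′ to 3′ on the gene's strand, and hold no transcribed base of that start. INSIG1 lies at chr7:155297628-155297877 (plus strand), STARD4 at chr5:111512536-111512785 (minus strand) and DHCR7 at chr11:71448394-71448643 (minus strand). TM7SF2 lies at chr11:65111622-65111871 (plus strand), HSD17B7 at chr1:162790452-162790701 (plus strand) and SREBF2 at chr22:41832855-41833104 (plus strand). Capitals mark the letters CCAAT, the box bound by the factor NF-Y, a partner of SREBP proteins, or ATTGG, the same box on the other strand. In SREBF2 they also mark TCACCCCAC, a form of the sterol regulatory element that SREBP proteins bind.
INSIG1: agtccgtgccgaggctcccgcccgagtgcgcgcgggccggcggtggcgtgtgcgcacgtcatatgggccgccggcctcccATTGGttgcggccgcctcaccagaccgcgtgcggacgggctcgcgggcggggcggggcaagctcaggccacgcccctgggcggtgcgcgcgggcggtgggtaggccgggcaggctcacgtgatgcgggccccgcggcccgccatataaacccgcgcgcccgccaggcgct
STARD4: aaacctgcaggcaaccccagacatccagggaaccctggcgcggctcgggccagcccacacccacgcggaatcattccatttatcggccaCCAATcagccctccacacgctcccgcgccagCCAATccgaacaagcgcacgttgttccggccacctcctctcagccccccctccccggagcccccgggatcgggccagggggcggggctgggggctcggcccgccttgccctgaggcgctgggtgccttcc
DHCR7: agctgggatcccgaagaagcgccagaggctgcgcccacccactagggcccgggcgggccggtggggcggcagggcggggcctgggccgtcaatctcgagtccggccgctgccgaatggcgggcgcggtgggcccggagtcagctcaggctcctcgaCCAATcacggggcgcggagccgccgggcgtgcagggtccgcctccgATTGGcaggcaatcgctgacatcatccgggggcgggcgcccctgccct
TM7SF2: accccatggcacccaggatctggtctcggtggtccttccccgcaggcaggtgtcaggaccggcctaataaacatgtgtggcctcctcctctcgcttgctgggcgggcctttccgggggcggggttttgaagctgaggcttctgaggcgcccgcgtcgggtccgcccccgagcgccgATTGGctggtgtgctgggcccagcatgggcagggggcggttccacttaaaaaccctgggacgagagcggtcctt
HSD17B7: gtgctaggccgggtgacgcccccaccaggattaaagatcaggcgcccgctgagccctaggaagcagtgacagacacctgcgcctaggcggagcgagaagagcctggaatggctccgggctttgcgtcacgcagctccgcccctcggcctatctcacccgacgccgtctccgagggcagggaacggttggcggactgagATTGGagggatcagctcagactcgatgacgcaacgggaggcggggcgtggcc
SREBF2: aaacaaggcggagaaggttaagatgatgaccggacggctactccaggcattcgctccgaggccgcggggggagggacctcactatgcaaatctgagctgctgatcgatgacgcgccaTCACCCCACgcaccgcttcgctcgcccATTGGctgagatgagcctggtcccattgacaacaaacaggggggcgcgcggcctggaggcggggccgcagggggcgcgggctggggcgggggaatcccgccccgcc

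All 5 promoters of the genes called lower hold CCAAT on one strand or the other. In DHCR7 the boxes begin 94 and 48 bases before the start, in STARD4 161 and 130 bases, in INSIG1 170 bases, in TM7SF2 74 bases and in HSD17B7 52 bases. Promoters were found for 29 of the 33 genes, as 38 windows because some genes have several starts. Counting only the first-listed start, 18 of the 29 genes (62.1%) hold CCAAT, against 33% of 27305 genes in the table, and 13 of the 24 that were not called (54.2%). The element searched as TCACNCCAC on both strands was found in the SREBF2 promoter alone among the 29, and in 0.875% of all genes. The element and CCAAT share no bases in the SREBF2 window, whereas CCAAT boxes on opposite strands overlap in the NSDHL window and at one IDI1 start. A match of letters does not show binding, and other forms of the element were not searched.

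Levels per transcript length, in TPM as deposited, spanned a wide range in both media. FDPS, which makes farnesyl diphosphate, was the highest of the 33 in the special medium, at 269.93 TPM against 204.76 TPM in KSFM. ACAT2, the thiolase that opens the pathway, was the highest in KSFM, with 212.11 TPM in the special medium and 252.14 TPM in KSFM. The lowest in the special medium was the lipoprotein receptor gene LRP1, at 7.35 TPM against 4.28 TPM in KSFM, and the lowest in KSFM was MYLIP, at 8.36 TPM in the special medium and 4.24 TPM in KSFM. The median over the 33 genes was 35.26 TPM in the special medium, the value of NPC1, and 36.25 TPM in KSFM, the value of GGPS1. Both medians lay above the 20.7 TPM and 17.9 TPM of all genes that passed the CPM minimum. Summed over the 33 genes, the level was 1793 TPM in the special medium and 1809 TPM in KSFM, and over the 20 enzymes 1242 TPM in the special medium and 1200 TPM in KSFM. The summed levels thus lay close together although single genes differed in both directions, on a scale whose median over all genes is 0.15 higher in the special medium (log2).

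**Figure D2:**
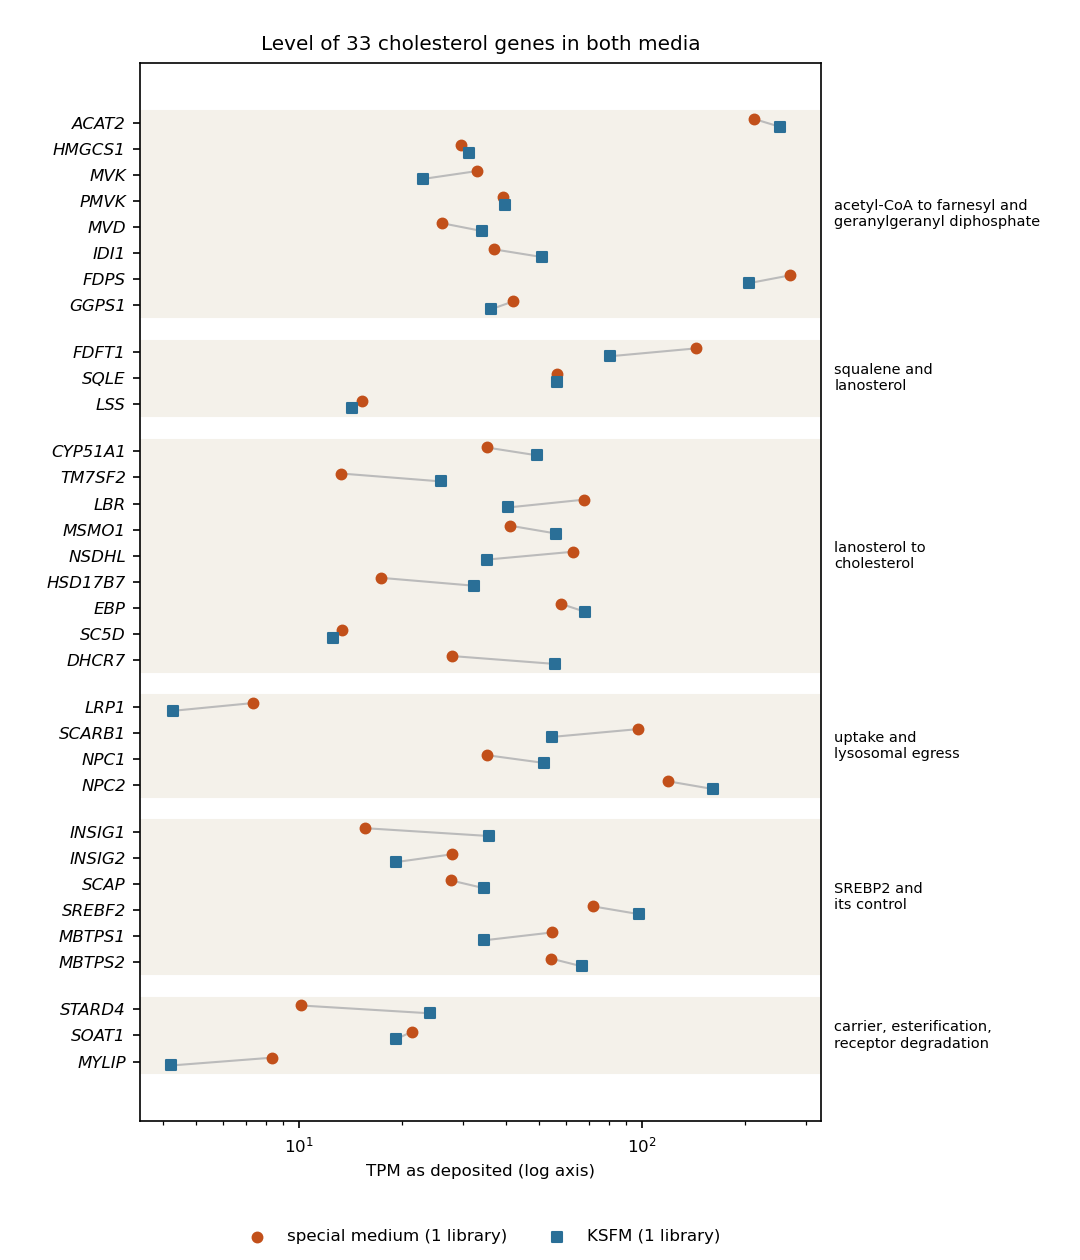
Level of each of the 33 genes in TPM (log axis) in the special medium (circle) and KSFM (square), 1 library each, grouped by place in the pathway. INSIG1, STARD4, DHCR7, TM7SF2 and HSD17B7 have the circle far to the left of the square, and FDFT1, LBR, NSDHL, SCARB1, LRP1 and MYLIP have it to the right.

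Of the 8 genes from acetyl-CoA to the isoprenoid diphosphates, 0 were called, beside 6.77% of all genes called lower and 9.86% higher. The median log2 ratio of the 8 was −0.23. HMGCS1, the synthase that makes HMG-CoA, had 29.73 TPM in the special medium and 31.32 TPM in KSFM, on 1304 and 1958 counts, and was 1.18-fold lower (1.10 to 1.26). IDI1, the isomerase of the isoprene unit, had 36.98 TPM in the special medium and 51.23 TPM in KSFM and was 1.55-fold lower (1.43 to 1.69). The mevalonate-handling enzymes did not share a direction. MVD, the decarboxylase, had 26.13 TPM in the special medium against 34.18 TPM in KSFM (1.48-fold lower, 1.31 to 1.68). MVK, the first kinase of mevalonate, had 32.98 TPM against 23.03 TPM in KSFM (1.27-fold higher, 1.12 to 1.44). PMVK, the kinase that follows MVK, had 39.25 TPM in the special medium and 39.95 TPM in KSFM, and its interval ended close to equality (1.17-fold lower, 1.02 to 1.33). ACAT2 was 1.35-fold lower (1.29 to 1.42) and FDPS 1.14-fold higher (1.08 to 1.20). GGPS1, which makes the geranylgeranyl group used to anchor proteins in membranes, had 42.08 TPM in the special medium and 36.25 TPM in KSFM, with a count ratio of 1.03 (0.942 to 1.12).

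Squalene and lanosterol formation is where carbon is committed to sterol. Of its 3 genes 0 were called, beside 6.77% of all genes called lower and 9.86% higher. FDFT1, which joins farnesyl units into squalene, had 143.55 TPM in the special medium and 80.90 TPM in KSFM, on 2435 and 1981 counts. SQLE, the oxygen-dependent enzyme that follows, had 56.64 TPM in the special medium and 56.37 TPM in KSFM, and 1343 and 1914 counts (1.12-fold lower on scaled counts, 1.04 to 1.20). LSS, which closes the ring into lanosterol, had 15.21 TPM in the special medium and 14.28 TPM in KSFM, and its count ratio of 0.965 (0.860 to 1.08) spanned equality. SQLE and LSS thus lay near equality while FDFT1 was well above it.

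The 9 genes that turn lanosterol into cholesterol had a median log2 ratio of −0.55, the lowest of the 6 groups by role. Of the 9, 3 were called lower, beside 6.77% of all genes. DHCR7, a reductase of the final step (ENSG00000172893), had 28.00 TPM in the special medium and 55.61 TPM in KSFM, on 588 and 1677 counts, and was 2.24-fold lower (2.03 to 2.46). HSD17B7, which acts in removal of methyl groups from the ring (ENSG00000132196), had 17.36 TPM in the special medium and 32.28 TPM in KSFM and was 2.02-fold lower (1.71 to 2.39). That fold is at the edge of the rule, and the gene has 2 named pseudogenes in GENCODE release 29, so its reads are less certain. CYP51A1, the demethylase that opens this stretch, had 35.24 TPM in the special medium and 49.33 TPM in KSFM and was 1.61-fold lower (1.48 to 1.75). MSMO1, an oxidase of ring methyl groups, had 41.24 TPM in the special medium and 56.15 TPM in KSFM (1.47-fold lower, 1.34 to 1.61). EBP, an isomerase of the sterol double bond, had 58.10 TPM in the special medium against 68.20 TPM in KSFM (1.35-fold lower, 1.21 to 1.51). NSDHL, the dehydrogenase that works with MSMO1 and HSD17B7 on the same methyl groups, went the other way from both, at 62.79 TPM in the special medium and 35.25 TPM in KSFM. SC5D, a desaturase just before DHCR7, had 13.31 TPM in the special medium and 12.54 TPM in KSFM, and its interval spanned equality.

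TM7SF2 and LBR encode related proteins that can both carry out the reductase step after CYP51A1, and LBR also anchors chromatin at the inner nuclear membrane. TM7SF2 (ENSG00000149809) had 13.29 TPM in the special medium and 25.87 TPM in KSFM, on 162 and 457 counts, and was 2.21-fold lower (1.85 to 2.66). LBR had 67.85 TPM in the special medium and 40.75 TPM in KSFM, on 2078 and 1782 counts, and was 1.49-fold higher (1.40 to 1.59). LBR thus stood at 5.11 times the TPM of TM7SF2 in the special medium and 1.58 times in KSFM. The ratio of their counts differed 3.29-fold between libraries (2.71 to 4.0), a value in which library scaling cancels. This pair and the other pairs set side by side here were chosen after their values were seen.

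**Figure D3:**
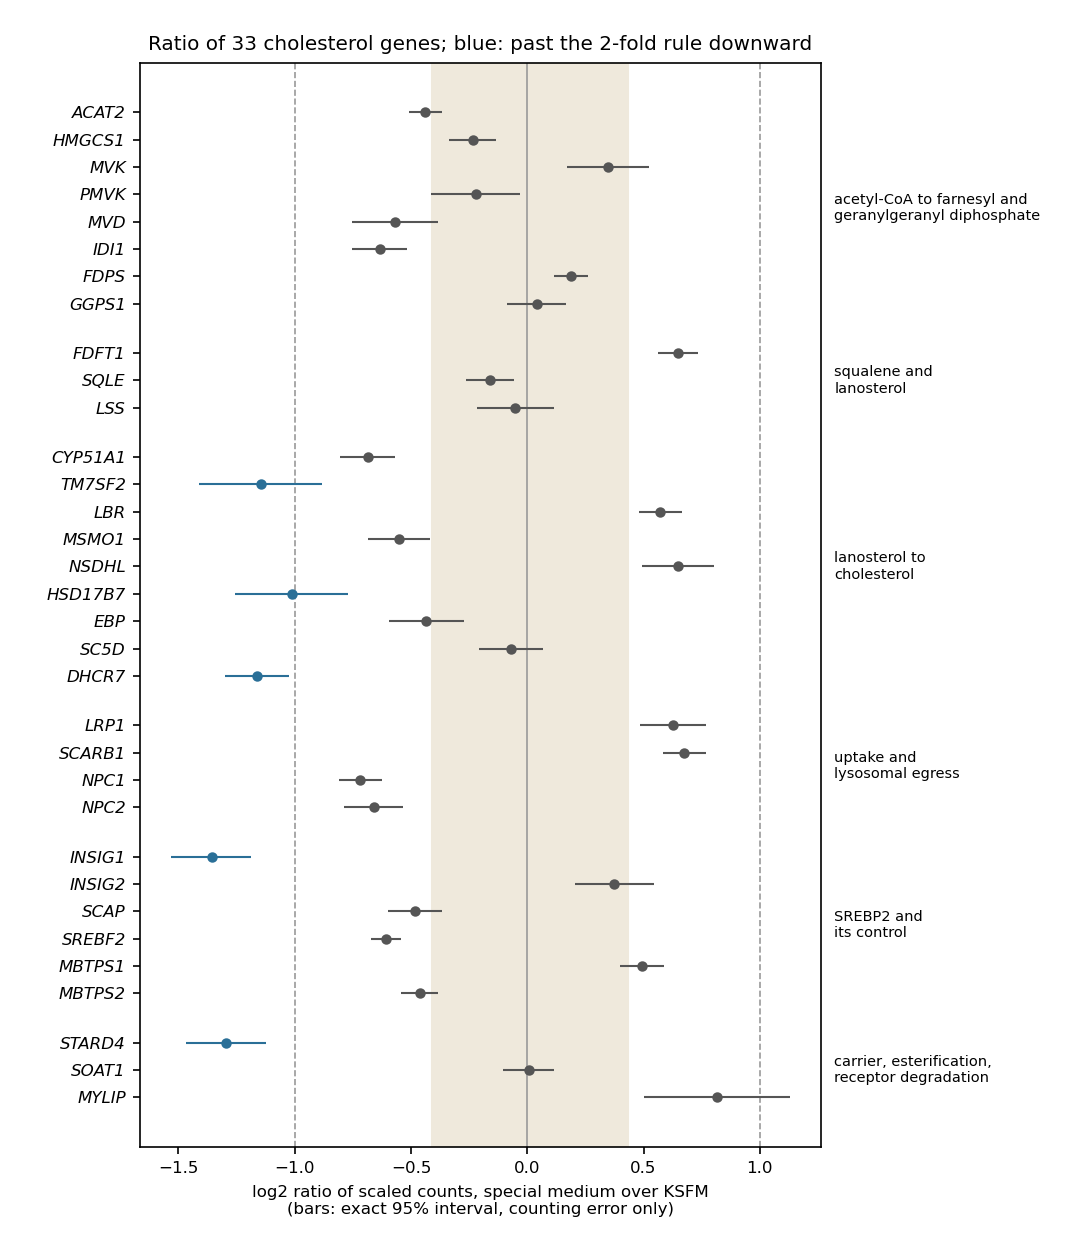
Log2 ratio of scaled counts, special medium over KSFM (horizontal axis), with exact 95% intervals for counting error as bars, for the 33 genes grouped by role; dashed lines mark 2-fold and the shaded band spans the quartiles of all 13632 genes (−0.41 to 0.43). Blue marks the 5 genes called lower, from −1.36 in INSIG1 to −1.01 in HSD17B7, and 0 genes lie past the 2-fold line on the right.

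Of the 6 genes that encode SREBP2 and the proteins that hold, escort and cut it, INSIG1 was called lower and the other 5 were not called. Over all genes 6.77% were called lower and 9.86% higher. INSIG1 (ENSG00000186480, chromosome 7) had 15.58 TPM in the special medium and 35.75 TPM in KSFM, on 365 and 1193 counts, the lowest ratio of all 33 genes (2.56-fold lower, 2.28 to 2.89). INSIG1 is itself a textbook SREBP target, unlike INSIG2, the paralog that holds SCAP in the same way. The 20 enzymes of synthesis, whose transcription SREBP2 also raises, went both ways. Their interval lay below equality in 12, above in 5 and spanned it in 3, beside 36.7% below and 37.2% above over all genes. The part of SREBP2 in these differences was not tested. INSIG2 had 27.98 TPM in the special medium and 19.18 TPM in KSFM and was 1.30-fold higher (1.15 to 1.46). The order of the pair thus turned: INSIG2 stood at 1.80 times the TPM of INSIG1 in the special medium and 0.537 times in KSFM, and their count ratio differed 3.32-fold (2.80 to 3.93).

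SREBF2 had 72.07 TPM in the special medium and 98.31 TPM in KSFM, on 3087 and 5997 counts. SCAP, the sterol-sensing escort, had 27.65 TPM in the special medium and 34.57 TPM in KSFM and was 1.40-fold lower (1.29 to 1.52). Of the Golgi proteases that release SREBP2 from the membrane, MBTPS1, which cuts first, had 54.57 TPM in the special medium and 34.66 TPM in KSFM (1.41-fold higher, 1.32 to 1.50). MBTPS2, which cuts after it, had 54.23 TPM in the special medium and 66.87 TPM in KSFM (1.38-fold lower, 1.30 to 1.46). The proteases thus had nearly the same TPM in the special medium (a ratio of 1.01), and MBTPS1 stood at 0.518 times MBTPS2 in KSFM. Their count ratio differed 1.94-fold (1.78 to 2.12).

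Of the 4 uptake and lysosome genes 0 were called, beside 6.77% of all genes called lower and 9.86% higher. SCARB1, the receptor for high density lipoprotein, had 97.51 TPM in the special medium and 54.67 TPM in KSFM, on 2108 and 1684 counts (1.60-fold higher, 1.50 to 1.70). LRP1, a large endocytic receptor of lipoprotein remnants and many other ligands, had 7.35 TPM in the special medium and 4.28 TPM in KSFM (1.54-fold higher, 1.40 to 1.70). NPC1, the membrane exporter of lysosomal cholesterol, had 35.26 TPM in the special medium and 51.90 TPM in KSFM (1.64-fold lower, 1.54 to 1.75). NPC2, the soluble protein that hands cholesterol to NPC1, had 118.98 TPM in the special medium and 161.29 TPM in KSFM (1.58-fold lower, 1.45 to 1.73). The RNA of both surface receptors was therefore higher and that of both lysosomal proteins lower. The count ratio of SCARB1 to NPC1 differed 2.62-fold (2.39 to 2.88). Related genes on the lists below did not all follow this split. The lysosomal genes LIPA, LAMP2 and LAMP1 had count ratios of 1.07, 1.07 and 0.835. Of 13 measured genes on the lipoprotein receptor list, the interval lay above equality in 6, below in 4 and spanned it in 3. LRP4, LRP6 and LRP12 were among those below. These list genes were named after their values were seen.

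STARD4 (ENSG00000164211), which moves sterol between membranes, had 10.13 TPM in the special medium and 24.12 TPM in KSFM. It had 370 and 1158 counts and was 2.45-fold lower (2.18 to 2.77). Its effective length, the estimated count per TPM, was longer in the special medium by 0.12 on the log2 scale, the largest such difference among the 33 genes and past the 0.099 that bounds 95% of all genes. SOAT1, which esterifies cholesterol for storage, had 21.37 TPM in the special medium and 19.12 TPM in KSFM, on 1204 and 1530 counts, and its interval (0.930 to 1.08) spanned equality. MYLIP, a ubiquitin ligase induced by the oxysterol receptor LXR that sends lipoprotein receptors to degradation, had 8.36 TPM in the special medium and 4.24 TPM in KSFM. MYLIP had 204 counts in the special medium and 148 in KSFM, was 1.76-fold higher (1.42 to 2.19), and had the highest ratio of the 33.

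Neighbouring parts of sterol biology were read as 6 lists, each described by its counts and median beside the −0.00037 of all genes. Over all genes, 9.86% were called higher and 6.77% lower, and no list was tested against these shares. Efflux, LXR and oxysterol genes had 3 of 12 measured genes called higher, 0 lower, and a median log2 ratio of 0.60. They were the cholesterol exporter gene ABCG1 (176 counts in the special medium and 105 in KSFM, 2.14-fold higher, 1.67 to 2.75), the LXR partner RXRA (2.09-fold, 1.93 to 2.26) and the bile acid enzyme gene HSD3B7 (2.22-fold, 1.52 to 3.26). The list for SREBP transcription partners and SREBP1 had 0 of 11 genes called and a median of 0.19. Its genes with the highest TPM were USF2 and NFYC. USF2, an E-box binding factor, had 85.55 TPM in the special medium and 63.46 TPM in KSFM. NFYC, a subunit of NF-Y, had 59.46 TPM in the special medium and 41.47 TPM in KSFM. The NF-Y subunits did not share a direction: NFYA was 1.80-fold lower (1.63 to 1.99) and NFYB 1.26-fold higher (1.16 to 1.37). NFYA and NFYB were named after their values were seen. SREBF1, the gene of the related factor SREBP1, had 44.37 TPM in the special medium and 29.15 TPM in KSFM, a log2 ratio of scaled counts of 0.45 against −0.61 for SREBF2; SREBF1 was named after its values were seen.

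Sterol trafficking genes were 3 higher and 1 lower of 22, with a median of 0.10. CAV1, the scaffold of caveolae, had 251.03 TPM in the special medium and 40.69 TPM in KSFM and was 5.47-fold higher (5.14 to 5.83). The oxysterol-binding relatives OSBPL7 and OSBPL6 went in opposite directions, 3.06-fold higher (2.42 to 3.89) and 2.03-fold lower (1.81 to 2.27), and the sterol transfer gene GRAMD1C was 2.25-fold higher (1.84 to 2.75). Lipoprotein receptors and their partners had 1 of 13 called, the scavenger receptor gene OLR1, at 158 counts in the special medium and 9 in KSFM (22.4-fold higher, 11.5 to 49.9), and a median of 0.15. Isoprenoid branch genes had 1 of 15 called, the farnesyltransferase subunit gene FNTB (2.24-fold higher, 1.88 to 2.67), and a median of −0.06. Sterol-regulated degradation genes had 1 of 16 called and a median of −0.06. That gene, TRIM31, encodes a ubiquitin ligase with no established part in sterol-regulated degradation, and had 224 counts in the special medium and 0 in KSFM. Against a floor of 3 counts in the KSFM library this is at least 95.2-fold higher, and the exact interval used for the other genes starts lower, at 76.8-fold.

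**Figure D4:**
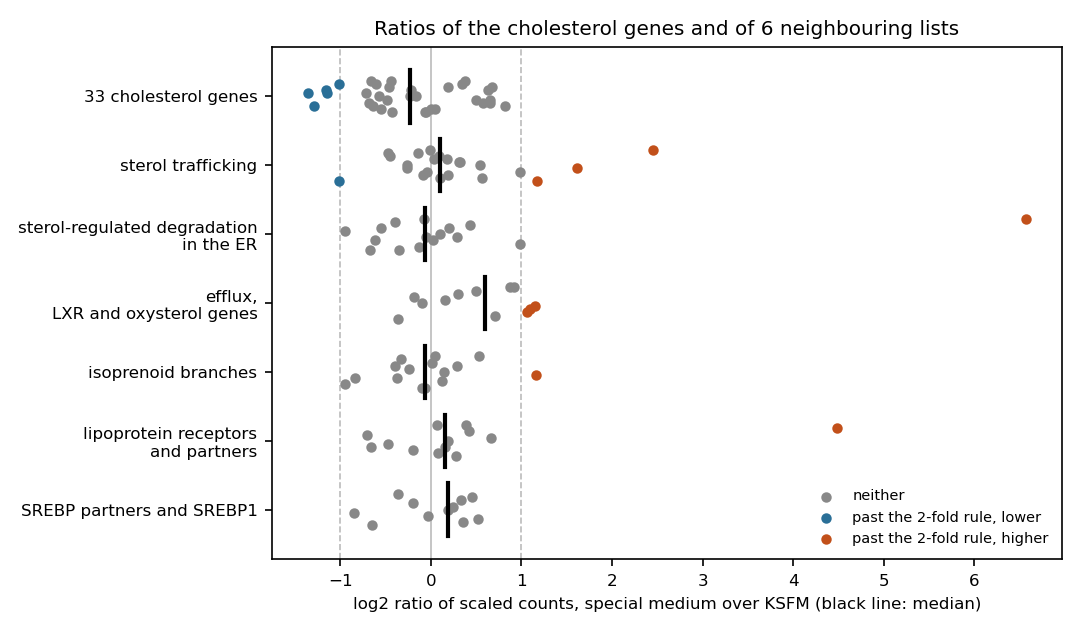
Log2 ratio of scaled counts, special medium over KSFM (horizontal axis), for each measured gene of the 33 and of the 6 neighbouring lists (rows), with the median as a black line; TRIM31, at the far right, is drawn at its bound against 3 counts. The efflux, LXR and oxysterol list has the highest median, 0.60, and the 33 cholesterol genes the lowest, −0.24.

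Certainty of read assignment differs between these genes. In GENCODE release 29, ACAT2 shares 397 exon bases with TCP1, 1141 with SOD2 and 1458 with SOD2-OT1, all on the opposite strand. On their own strand, CYP51A1 shares 2844 exon bases (79.4% of its exons) with AC000120.2, GGPS1 shares 1422 with TBCE and MBTPS2 shares 1093 with YY2. The other overlaps found are of at most 703 bases, among them 124 bases of STARD4 with STARD4-AS1 and 16 bases of TM7SF2 with VPS51. FDPS has 8 named pseudogenes and CYP51A1 has 3. The strand setting of the counting is not given in the sources used here, so the value of ACAT2 is uncertain to that extent. Overlap on the same strand and named pseudogenes do not depend on that setting. They leave the values of CYP51A1, GGPS1, MBTPS2 and FDPS uncertain as well. FDFT1 and LSS each carry 2 Ensembl identifiers under 1 symbol, unlike the other members, so their values are also less certain.

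The keratins that define mature corneal epithelium were absent or nearly so, while general epithelial markers were abundant. The 11 listed epithelial markers summed to 4852 TPM in the special medium and 2212 TPM in KSFM, mostly KRT18 and KRT8. KRT18 was at 2503 TPM in the special medium and 1128 TPM in KSFM, and KRT8 at 1292 TPM in the special medium and 409 TPM in KSFM. KRT5 and CDH1 stood the other way, with log2 ratios of scaled counts of −0.60 and −0.32. The basal markers KRT14 and TP63 were nearly absent, at 10 and 13 counts in the special medium and 4 and 5 counts in KSFM. The corneal keratin gene KRT12 had 0 counts in both and KRT3 had 1 count in the special medium and 0 in KSFM. Stromal markers summed to 3.25 TPM in the special medium and 2.64 TPM in KSFM, and the pan-leukocyte marker PTPRC had 0 counts in the special medium and 1 in KSFM. The 6 listed liver markers summed to 120 TPM in the special medium and 17.3 TPM in KSFM. APOA1, APOA2, TTR and HP had 110, 82, 42 and 315 counts in the special medium and 0 in KSFM. ALB had 222 counts in the special medium and 18 in KSFM. SERPINA1 differed little, with 550 counts in the special medium and 612 in KSFM (log2 ratio of 0.20). It made up 16.61 TPM of the sum in KSFM. The endothelial markers summed to 7.74 TPM in the special medium and 0.300 TPM in KSFM, mostly CDH5. The immune markers summed to 71.0 TPM in the special medium and 59.8 TPM in KSFM, nearly all of it CD68. The adipocyte markers summed to 0.480 TPM in the special medium and 0.640 TPM in KSFM. The part of these markers in the differences above was not tested.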

How the data were processed

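Per the labels, RNA from 3 cultures per medium was pooled and sequenced from a stranded poly(A) library. The submitters' processing notes name the GRCh38 build, RSEM, HISAT2 2.1.0, fastp 0.20.0 and FastQC 0.11.9. What annotation and strand setting were used is not given in the sources used here. Estimated counts and TPM values were deposited by the authors for 26506 genes.

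Estimated counts were rounded (totals of 16900472 in the special medium and 21604652 in KSFM) and scaled by edgeR 4.0.16 TMM factors. Ratios of special medium over KSFM carry an exact 95% interval (Clopper-Pearson, given the summed count). PCR copies are not separate molecules and cannot be told from them in these counts, so intervals and floors measure counting error alone. At 100 counts per library the log2 interval spans 0.41 each way, and at 1000 counts 0.13. Changes in the ratio of 2 genes have an exact conditional interval.

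The members and lists were chosen with earlier results of these data known. All 33 members are named; from each list, genes past the 2-fold rule are named (up to 4 by size), or the 2 with the highest TPM. Of 100 list entries, 100 were found, 3 under another symbol. Alternatives were other scaling (total counts, DESeq2 1.42.0, upper quartile), TPM, other filters and folds, and removal of a trend on effective length. Coordinates of promoters are RefSeq GRCh38.p14. Computation used R 4.3.3, Python 3.11.15 and scipy 1.17.1.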

Additional observations from a re-analysis of the deposited data

How the results depend on the processing

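Directions of INSIG1, STARD4, DHCR7, TM7SF2 and HSD17B7 held under all 12 alternatives run, and 0 of the 33 genes were called higher under any. The CPM filters, the 4-fold rule and the interval beyond 2-fold reuse the main ratios, so no direction could change there. The number called lower was 2 on TPM with a pseudocount of 1 and 2 with 0.1 (INSIG1 and STARD4), 3 with the interval wholly beyond 2-fold and 0 at 4-fold. HSD17B7 missed 2-fold (−0.90) after removal of the effective length trend. The members' median was −0.073 and −0.075 on TPM with pseudocounts of 1 and 0.1, where all genes shift by 0.15 and 0.16. On uncentred TPM the ratios of LSS, SC5D and SQLE turned just above equality, to 0.09, 0.09 and 0.01 at most. Over the 33 genes and 12 alternatives, 334 ratios kept their call or stayed within their counting interval. Settings that reuse the main ratios fixed part of these in advance. A further 48 uncalled ratios moved beyond the interval and 14 lost a call. Of those 14, 5 fell to the 4-fold rule and 2 to the interval beyond 2-fold, which leave the ratios as they are, and 6 to uncentred TPM, where centring restored them. The cause of the 1 after the length trend was not tested.

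Over all genes, 788 were called higher and 446 lower at 10 CPM, 408 and 162 at 4-fold, and 837 and 395 with the interval beyond 2-fold. On TPM 349 were lower with a pseudocount of 1 (536 centred) and 605 with 0.1. By role, medians on TPM with pseudocounts of 1 and 0.1 were −0.05 and −0.05 for the early enzymes, −0.30 and −0.31 for SREBP2 control, and 0.15 and 0.16 for the carrier group. The uptake group stood at 0.16 with 0.1 and at 0.16 after the length trend was removed. No paired analysis was possible because each medium has 1 library. Depth limits MYLIP, TM7SF2 and HSD17B7 most, on 148 to 504 counts.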
